A study of Cynara cardunculus with 12 samples.

Results

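The 4 genes described here are those annotated as caffeoyl-CoA O-methyltransferase (CCoAOMT) in the annotation used by the study, Ccrd_004659, Ccrd_019031, Ccrd_012615 and Ccrd_012618, out of 26505 genes in the deposited count table. They were found by description in a shortened copy of a gene list that shows only genes called in 1 of the transgenic lines, L1, so a CCoAOMT gene with a smaller change in that line would not be among them, and their calls in L1 were fixed by the choice. RNA was sequenced from undifferentiated callus, a dividing cell mass grown from leaves of cardoon (Cynara cardunculus, genotype Spagnolo). The L1, L18 and L24 lines overexpress the Arabidopsis transcription factor AtMYB4 under the CaMV 35S promoter, which is active in most cells, and were compared with wild type (WT) callus. L1 and L24 came from the Agrobacterium strain AGL1 and L18 from the strain EHA105, and all transgenic lines were kept on phosphinothricin and cefotaxime, while no selection is named for WT. Each group was 1 callus line with 3 replicate samples, 12 samples in all. The p-values therefore set differences against the replicate spread inside cultures, pooled over the groups, and not against spread between independent lines. No line with an empty vector is named, and WT had passed through more sub-culture rounds, so transformation, selection and culture age cannot be told apart from the transgene. The table lists cardoon genes, and the level of the AtMYB4 transgene was not analysed here.

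CCoAOMT moves a methyl group from S-adenosylmethionine onto the 3-hydroxyl of caffeoyl-CoA and so makes feruloyl-CoA. This compound leads to guaiacyl and syringyl lignin, the polymer that stiffens secondary cell walls, and to ferulate esters in the wall. AtMYB4 belongs to the R2R3-MYB proteins and is known in Arabidopsis as a repressor of phenylpropanoid genes. Plants usually carry several CCoAOMT-like genes, and not all of them are tied to lignin.

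Library totals ran between 12505275 and 19509803 counts, and 20024 genes passed the filter on low counts, the 4 CCoAOMT genes among them. Genes listed as chlorophyll a-b binding proteins or Rubisco small chain, markers of green cells, also differed between the groups. The summed FPKM (fragments per kilobase of exon, scaled to the total of the library) of the 9 markers was 264 to 284 in L1, 237 to 298 in L18, 54.9 to 82.2 in L24 and 31.0 to 37.2 in WT, with Ccrd_012865 at 0 in L1. Most of the sum in L1 and L18 came from Ccrd_006280 (mean 90.1 in L1, 147 in L18, 1.57 in WT) and Ccrd_006285 (163, 99.5 and 9.29). Ccrd_022910 went the other way, with means of 0.21 in L1 and 2.33 in L18 against 10.1 in WT. Of these 9 genes, 5 rose and 4 fell in L1, 2 rose and 3 fell in L18, and 2 rose and 4 fell in L24. The markers were found in the same shortened gene list as the CCoAOMT genes, so their calls in L1 were fixed by the choice. For comparison, the share of all genes tested that passed against WT was 39.7% for L1, 25.2% for L18 and 40% for L24. The part of the markers in the results below was not tested. In bulk RNA, fewer cells of a type and less RNA per cell cannot be told apart.

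The genes had differing structures on their scaffolds of the cardoon assembly CcrdV1, all on the plus strand. Ccrd_004659 lay on scaffold 2668 from 74592 to 77315, with 5 exons of 1279 bases in all. Ccrd_019031 lay on scaffold 364 from 132763 to 150464, with 7 exons of 1389 bases, and a gap of 14393 bases separated exon 4 and exon 5. The single count of Ccrd_019031 covered the exons on both sides of that gap, so they cannot be told apart. Ccrd_012615, from 21938 to 23212, and Ccrd_012618, from 37070 to 38336, were on scaffold 840, 13857 bases apart, with 3 exons each and 1080 and 1051 exon bases. The middle exon of both was 277 bases long, the summed length of the 145-base and 132-base exons that stood next to each other in Ccrd_004659 and in Ccrd_019031. No other annotated gene overlapped the span of any of the 4. How reads that match several paralogs were assigned is not given in the sources used here, so reads shared between these genes remain an uncertainty, and their sequences were not analysed here.

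**Figure D1:**
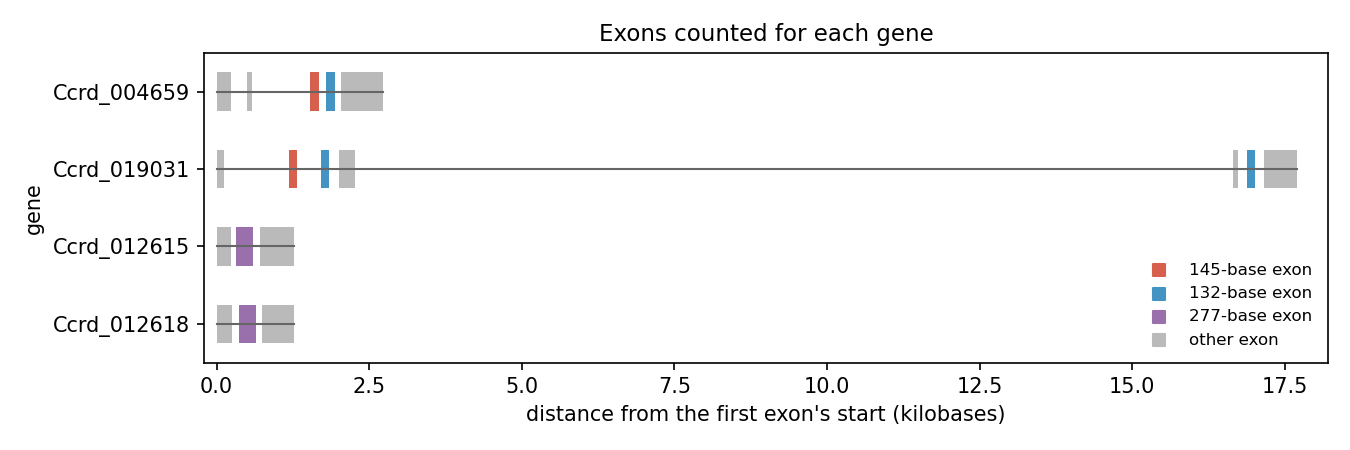
Exon maps of the 4 CCoAOMT genes, drawn to scale against the distance from the start of the first exon in kilobases; colours mark exons of 145, 132 and 277 bases. The Ccrd_019031 model holds a gap of 14393 bases, and the scaffold 840 genes Ccrd_012615 and Ccrd_012618 share a compact layout of 3 exons.

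Ccrd_004659, Ccrd_019031 and Ccrd_012615 fell in all 3 transgenic lines, whereas Ccrd_012618 rose in L1 and L24 and did not pass the test in L18. In L1, 4 of 4 genes were called, 3 lower and 1 higher, against 39.7% of all genes tested, 20.4% lower and 19.3% higher, a count fixed by the choice of genes. In L18, 3 of 4 were called, all lower, against 25.2% of all genes called, 12.8% lower and 12.4% higher. In L24, 3 of 4 were called lower and 1 higher, against 40% of all genes called, 20.7% lower and 19.3% higher. In each of these calls the replicates of the line lay wholly outside those of WT, as they also did for 53.9% of all genes in L1, 39.9% in L18 and 50.8% in L24. Calls used edgeR's quasi-likelihood test over all 20024 genes, with a threshold of 0.05 on the p-value after Benjamini-Hochberg adjustment, and all adjusted p-values below are from that test. The 3 genes that fell also belong to a list of lignin genes lowered in all lines that the study built on these samples, so their p-values set the change against the replicate spread and are not independent evidence of its direction.

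**Figure D2:**
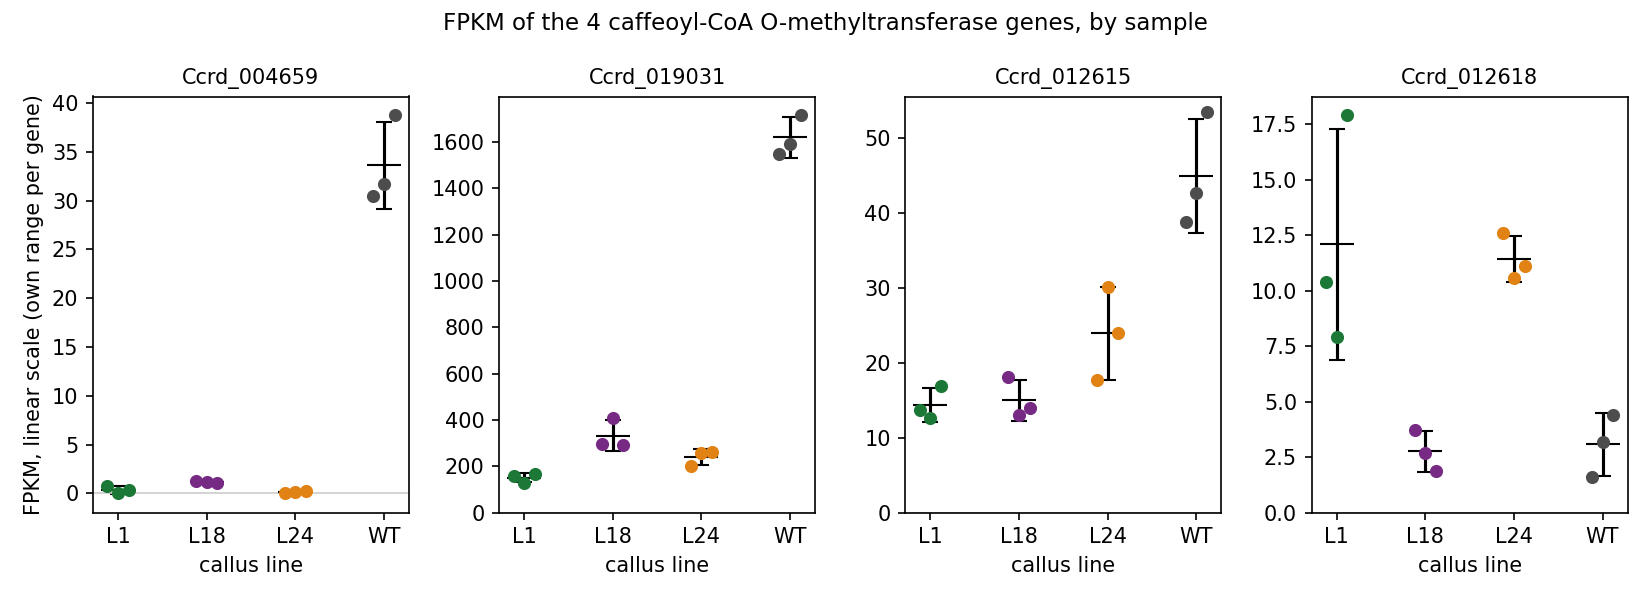
Deposited FPKM of each CCoAOMT gene in every sample, for L1, L18, L24 and WT, on a linear axis with its own range per gene; points are samples and bars the mean with its SD (n = 3). The line samples of Ccrd_004659, Ccrd_019031 and Ccrd_012615 sit below all WT samples, and Ccrd_012618 is higher in L1 and L24 only.

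Ccrd_019031 carried most of the mRNA of the 4 genes. Its normalised read counts were 3142, 2495 and 3693 in L1, 6108, 8900 and 5795 in L18, 4228, 4962 and 4949 in L24, and 37534, 33841 and 35225 in WT. Every line sample was below every WT sample, and the highest line value, in L18, was still far under the lowest WT value. Per length, Ccrd_019031 averaged 151 ± 20.9 FPKM in L1, 332 ± 66.4 in L18, 241 ± 34.5 in L24 and 1620 ± 86.9 in WT (SD, n = 3 each). In WT this level was above that of 99.87% of all genes in the table, and in the lines it was still above 96.54% of them for L1, 98.71% for L18 and 98.01% for L24. The log2 fold change against WT was -3.52 ± 0.213 in L1 (SE, adjusted p = 6.86e-08), -2.36 ± 0.203 in L18 (adjusted p = 2.59e-06) and -2.92 ± 0.208 in L24 (adjusted p = 2.96e-07). Thus the most abundant of the 4 genes was also lowered in every line, by 5.13-fold in L18 to 11.4-fold in L1 on the fitted scale.

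Ccrd_004659 showed the widest change of the 4 genes and was nearly silent in the lines. Raw read counts were 16, 0 and 5 in L1, 26, 23 and 20 in L18, 1, 2 and 4 in L24, and 554, 629 and 684 in WT. L18 was the only line in which all 3 samples kept at least 20 counts, and the 0 in L1 replicate 2 allows up to 3 counts in that library. Its FPKM averaged 0.369 ± 0.404 in L1, 1.16 ± 0.107 in L18, 0.141 ± 0.0970 in L24 and 33.6 ± 4.46 in WT (SD, n = 3 each). On summed counts corrected for library size, WT exceeded L1 by 105.6-fold (95% interval 68.9 to 171), L18 by 30.6-fold (24.0 to 39.5) and L24 by 273-fold (132 to 680). These intervals cover counting error only, and rest on 21 counts in L1, 69 in L18 and 7 in L24. The fitted log2 fold change was -6.67 ± 0.508 in L1 (SE, adjusted p = 4.16e-07), -4.93 ± 0.439 in L18 (adjusted p = 3.4e-06) and -8.03 ± 0.582 in L24 (adjusted p = 3.42e-07). Because so few reads remained, its size depended on the scale and on single libraries. It was -4.70 in L1 and -4.92 in L24 on log2(FPKM + 1), -8.08 in L1 without L1 replicate 1 and -5.95 without L1 replicate 2, all still called.

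Ccrd_012615, the upstream gene of the pair on scaffold 840, fell by a smaller amount. Its normalised read counts were 209, 191 and 291 in L1, 290, 220 and 215 in L18, 290, 451 and 351 in L24, and 730, 704 and 853 in WT. No line sample reached the lowest WT sample, although L24 came nearest. Its FPKM averaged 14.4 ± 2.24 in L1, 15.0 ± 2.72 in L18, 23.9 ± 6.21 in L24 and 44.9 ± 7.62 in WT (SD, n = 3 each). The log2 fold change was -1.73 ± 0.207 in L1 (SE, adjusted p = 2.01e-05), -1.66 ± 0.206 in L18 (adjusted p = 5.95e-05) and -1.07 ± 0.202 in L24 (adjusted p = 0.000866).

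Ccrd_012618, its neighbour on the same strand, moved the other way in L1 and L24. Its normalised read counts were 155, 117 and 301 in L1, 58.3, 44.2 and 28.4 in L18, 200, 154 and 158 in L24, and 29.4, 51.3 and 68.5 in WT. All L1 and L24 samples were above all WT samples, while the L18 samples fell within and just below the WT range. Its FPKM averaged 12.1 ± 5.22 in L1, 2.77 ± 0.929 in L18, 11.4 ± 1.04 in L24 and 3.07 ± 1.41 in WT (SD, n = 3 each). The gene rose by 1.92 ± 0.376 on the log2 scale in L1 (SE, adjusted p = 0.00114) and by 1.77 ± 0.376 in L24 (adjusted p = 0.00203). In L18 the value was -0.20 ± 0.395 (adjusted p = 0.765), with a 95% interval of -1.04 to 0.65 that leaves room for moderate change in either direction. Its sign there turned positive without WT replicate 3 (0.10) or without L18 replicate 3 (0.04).

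**Figure D3:**
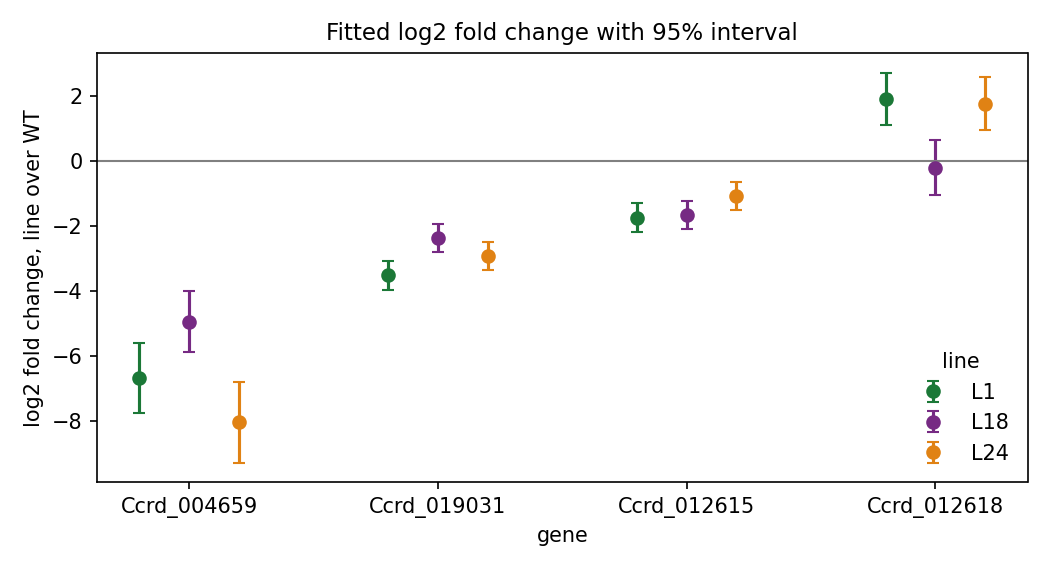
Fitted log2 fold change of each CCoAOMT gene in L1, L18 and L24 over WT, with 95% intervals; the line at 0 marks no difference. Ccrd_012618 is at 1.92 in L1 and 1.77 in L24 but -0.20 in L18, and the other genes are below 0 in every line.

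The summed level of the 4 genes was 178 ± 27.5 FPKM in L1, 351 ± 64.8 in L18, 276 ± 38.9 in L24 and 1701 ± 100.3 in WT (SD, n = 3 each). The sum was thus 10.5% of the WT value in L1, 20.6% in L18 and 16.2% in L24. The genes were chosen through their call in L1, so a CCoAOMT gene steady in L1 would be missing from this sum. These percentages describe the 4 genes, and the level over all CCoAOMT genes is not known here. The rise of Ccrd_012618 was small beside the fall of Ccrd_019031 on this per-length scale. The mean FPKM of Ccrd_012618 was 12.1 in L1 against 3.07 in WT, and that of Ccrd_019031 was 151 in L1 against 1620 in WT.

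The makeup of the summed FPKM of the 4 genes differed between the groups. Ccrd_019031 made up 85.1 ± 2.16% of the summed FPKM in L1, 94.5 ± 1.63% in L18, 87.1 ± 0.943% in L24 and 95.2 ± 0.493% in WT. Its share was lower in every L1 and L24 sample than in any WT sample, and the L18 samples overlapped those of WT. Ccrd_012618 took 6.63 ± 1.96% in L1, 0.804 ± 0.317% in L18, 4.23 ± 1.05% in L24 and 0.178 ± 0.0729% in WT. Even in L18, where its level did not pass the test, its share was above that of WT in all samples, beside a lower total. Ccrd_004659 showed the reverse, with 0.196 ± 0.221% in L1, 0.335 ± 0.0507% in L18, 0.0488 ± 0.0303% in L24 and 1.97 ± 0.143% in WT.

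Within the scaffold 840 pair, the balance of the genes shifted in every line. Ccrd_012618 supplied 38.6 to 51.5% of the summed FPKM of the pair in L1, 12.0 to 17.1% in L18, 26.0 to 41.5% in L24 and 3.98 to 7.62% in WT. The ranges of L1, L18 and L24 all lay above that of WT, and those of L1 and L24 also lay above that of L18. In 1 of the L1 samples the ratio of Ccrd_012618 to Ccrd_012615 passed 1, at 1.06. These shares are descriptions and carry no test.

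**Figure D4:**
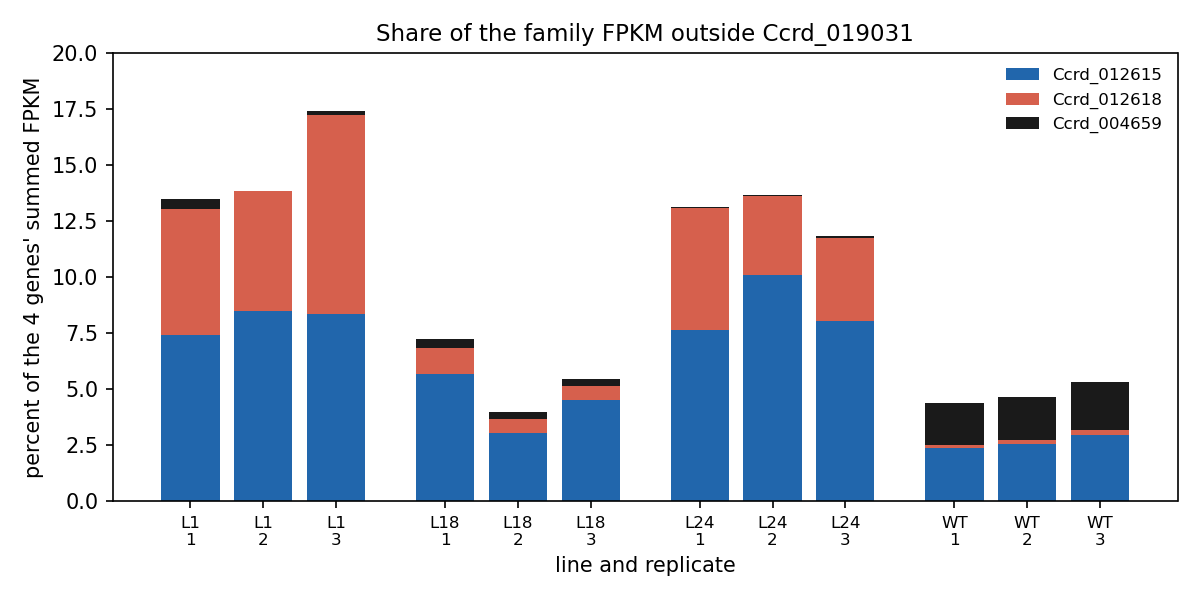
Percent of the summed FPKM of the 4 CCoAOMT genes taken by Ccrd_012615, Ccrd_012618 and Ccrd_004659 in each sample, stacked from 0; the rest, up to 100%, is Ccrd_019031. In L1 and L24 the bars reach 11.8 to 17.4% and are mostly Ccrd_012615 and Ccrd_012618, whereas in WT they stay between 4.37 and 5.33% with a large part from Ccrd_004659.

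The lines also differed from each other. Between L1 and L18, 3 of the 4 genes were called, against 33% of all genes. Between L24 and L18, 4 of 4 were called, against 30.7%, and between L1 and L24, 2 of 4, against 20.6%. For Ccrd_012618 the contrasts with L18 were called in all 23 alternatives, at 2.11 ± 0.378 on the log2 scale for L1 over L18 (SE, adjusted p = 0.000715) and 1.96 ± 0.378 for L24 over L18 (adjusted p = 0.00151). L1 and L24 differed by 0.15 for this gene (95% interval -0.60 to 0.90, adjusted p = 0.816). The order of its levels was therefore L1 and L24 above WT and L18, with no called difference inside either pair.

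For Ccrd_019031 the order ran WT, L18, L24, L1 from high to low. The difference of L1 over L18 was -1.16 ± 0.196 (SE, adjusted p = 0.000479) and was called in all 23 alternatives. The steps between neighbours were at the edge of the threshold, with -0.56 ± 0.194 for L24 over L18 (adjusted p = 0.0429) and -0.60 ± 0.194 for L1 over L24 (adjusted p = 0.0426). The L24 over L18 step was lost without any 1 of 8 libraries, namely WT replicate 2 or 3, L1 replicate 1, L18 replicate 1 or 2, or any L24 replicate, with values of -0.65 to -0.33 and adjusted p between 0.0515 and 0.206. It was lost in 14 of the 23 alternatives in all, the others being the fit of only the 2 groups (0.0707), the replicate block (0.0661), the limma fits on FPKM (0.0504 to 0.0533) and centring on neighbours (0.146), given as adjusted p. The L1 over L24 step was lost without any 1 of 7 libraries, namely WT replicate 2 or 3, L1 replicate 1 or 2, L18 replicate 1, or L24 replicate 2 or 3, with values of -0.61 to -0.46 and adjusted p between 0.052 and 0.166. It was also lost with the replicate block (adjusted p = 0.069) and when centred on neighbours (adjusted p = 0.0689).

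Ccrd_004659 was lower in L24 than in L18, with a log2 difference of -3.10 ± 0.718 (SE, adjusted p = 0.00513) that was called in all 23 alternatives, although its size ran from -3.70 without L24 replicate 3 to -0.92 on log2(FPKM + 1). The difference of L1 over L18 was -1.74 ± 0.581 (adjusted p = 0.0337), and it was lost without L1 replicate 2 or 3 or without L18 replicate 1 or 2, with values of -1.72 to -1.02 and adjusted p between 0.0533 and 0.0749. Without L1 replicate 1 it was -3.15 (adjusted p = 0.0033). The call was also lost with edgeR's exact test (adjusted p = 0.0845), DESeq2 (0.0763) and a fit of only the 2 groups (0.159). L1 over L24 was 1.36 (95% interval -0.52 to 3.24, adjusted p = 0.311). Without L1 replicate 2 this difference was 2.08 and called (adjusted p = 0.0156), and without L1 replicate 1 it was -0.06 (adjusted p = 0.98). The order was thus WT, then L18, then L1 and L24, and the place of L1 rested on single samples.

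For Ccrd_012615, L24 was above L18 by 0.59 ± 0.204 (SE, adjusted p = 0.0416) and L1 over L24 was -0.66 ± 0.205 on the log2 scale (adjusted p = 0.034), although the L1 and L24 samples overlapped. The L24 over L18 call was lost without any 1 of 6 libraries, namely WT replicate 2, L1 replicate 1, L18 replicate 2 or 3, or L24 replicate 2 or 3, with values of 0.41 to 0.62 and adjusted p between 0.0528 and 0.178. It was also lost with edgeR's exact test (adjusted p = 0.0551), the fit of only the 2 groups (0.0739) and the replicate block (0.0626). The L1 over L24 call was lost without L1 replicate 1 or 2 or L24 replicate 2 or 3, with values of -0.69 to -0.48 and adjusted p between 0.0731 and 0.135, and it sat at the threshold with the fit of only the 2 groups (0.05) and the replicate block (0.0506), neither of which called it. L1 and L18 were close, with a difference of -0.07 (95% interval -0.52 to 0.37, adjusted p = 0.818). Its order was WT, then L24, then L18 and L1.

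Other genes near the 4 in identifier order were checked on the same scaffolds. Of 11 such neighbours, 7 passed the filter. Among them 4 fell and 0 rose in L1, 2 fell and 1 rose in L18, and 3 fell and 2 rose in L24. Over all genes tested, 20.4% fell and 19.3% rose in L1, 12.8% and 12.4% in L18, and 20.7% and 19.3% in L24. Next to Ccrd_004659, Ccrd_004658 differed from WT by 0.08 in L1, 0.13 in L18 and 0.22 in L24 on the log2 scale, and none of these was called. Next to Ccrd_019031, Ccrd_019030 fell by 0.56 in L1, 0.36 in L18 and 0.50 in L24, whereas Ccrd_019032 on its other side rose by 0.71 in L18 and by 0.53 in L24, with 0.02 in L1 (adjusted p = 0.955). Further out, Ccrd_019029 was at -1.70 in L1 and -0.74 in L24, both called, and at 0.15 in L18 (adjusted p = 0.491). Ccrd_019033 was at -0.58 in L1, which was called, and at -0.34 in L18 and -0.24 in L24, which were not. The genes Ccrd_012616 and Ccrd_012617, which lie between the scaffold 840 pair, had 0 counts in all 12 samples, as did Ccrd_012619 just beyond it. Outside the pair, Ccrd_012614, described by its bHLH domain, fell in all lines (-2.41 for L1, -0.91 for L18, -1.37 for L24), whereas Ccrd_012620 rose in L24 (0.92, adjusted p = 0.0122). The opposite changes of Ccrd_012615 and Ccrd_012618 in L1 and L24 were thus seen between genes separated only by gene models with 0 counts. Every CCoAOMT call against WT was kept when each log2 fold change was centred on the running median of the genes around it.

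The genes whose pattern over the 12 samples was most like that of each CCoAOMT gene were named by the root mean square difference of log2(CPM + 1), with CPM the counts scaled to the same library total and each gene centred on its mean. For Ccrd_004659 the nearest was Ccrd_015561 (difference 0.35), annotated as hydroxycinnamoyl-CoA shikimate transferase (HCT), which couples p-coumaroyl-CoA to shikimate ahead of ring hydroxylation. Next came Ccrd_008518 (0.37), with a GDSL lipase domain, and Ccrd_013203 (0.44), with a NAC domain. For Ccrd_019031 they were Ccrd_018428 (0.30), with a PHD-type domain, Ccrd_025643 (0.31), the p-coumaroyl ester 3'-hydroxylase (C3'H) that adds the ring hydroxyl later methylated by CCoAOMT, and Ccrd_009779 (0.33), an adenosinetriphosphatase. For Ccrd_012615 the nearest were Ccrd_003130 (0.26), a major facilitator protein, Ccrd_026594 (0.26) and Ccrd_024960 (0.27). For Ccrd_012618 they were Ccrd_008607 (0.27), with a remorin domain, Ccrd_000162 (0.28) and Ccrd_023474 (0.29). The differences between the CCoAOMT genes themselves were 0.81 for Ccrd_019031 and Ccrd_012615, 0.91 for Ccrd_004659 and Ccrd_019031, and 1.29 for Ccrd_012615 and Ccrd_012618. They were 1.61 for Ccrd_004659 and Ccrd_012615, 2.05 for Ccrd_019031 and Ccrd_012618, and 2.8 for Ccrd_004659 and Ccrd_012618. The nearest genes were picked as the closest of all genes tested, so their smaller distances follow from that choice. These distances are descriptions over 12 samples that share their libraries.

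The enzymes around the CCoAOMT step were taken from a list of 31 further lignin pathway genes. That list was drawn from the same genes called in L1, so its L1 counts were fixed by the choice. Some of its genes were also listed by the study as changed in all lines, so its L18 and L24 counts were partly fixed. In L1, 23 fell, 7 rose and 1 did not pass the test, with a median log2 fold change of -2.11, against 0.02 over all genes. In L18, 17 fell, 1 rose and 13 did not pass, with a median of -0.97, against 0.01 over all genes. In L24, 21 fell, 9 rose and 1 did not pass, with a median of -2.06, against 0.01. The shares called over all genes were 39.7% in L1, 25.2% in L18 and 40% in L24.

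Ahead of the CCoAOMT step, the PAL, C4H, HCT and C3'H genes of the list were called lower in every line. Both genes for phenylalanine ammonia-lyase (PAL), which opens the pathway, belong to these, and Ccrd_014855 averaged 0.60 FPKM in L1, 4.44 in L18, 2.50 in L24 and 41.3 in WT. The cinnamate 4-hydroxylase (C4H) Ccrd_010165 averaged 153.9 FPKM in L1, 214 in L18, 175 in L24 and 848 in WT, or -2.55 for L1, -2.07 for L18 and -2.43 for L24 as log2 fold changes. HCT, Ccrd_015561, fell by 4.83 in L1, 3.94 in L18 and 4.91 in L24 on the log2 scale, and C3'H, Ccrd_025643, fell by 2.88 in L1, 2.06 in L18 and 2.68 in L24. The study named Ccrd_010165 and Ccrd_015561, and counted PAL genes, among those changed in all lines of these same samples. Such calls in L18 and L24 are thus not independent evidence of direction. The S-adenosylmethionine synthase Ccrd_012038, which makes the methyl donor, averaged 632 FPKM in L1, 1051 in L18, 555 in L24 and 2648 in WT and was called lower in every line (log2 values -2.17 for L1, -1.42 for L18, -2.42 for L24).

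The 4-coumarate-CoA ligase (4CL) genes, which activate hydroxycinnamates with CoA, moved in both directions, as the CCoAOMT genes did. Of 12, 7 fell and 4 rose in L1, 5 fell and 0 rose in L18, and 7 fell and 5 rose in L24. Over all genes tested, 20.4% were called lower and 19.3% higher in L1, 12.8% and 12.4% in L18, and 20.7% and 19.3% in L24. The L1 counts of the 4CL genes, and of the laccase and dirigent genes below, were fixed by the choice of the list. Ccrd_018690 fell by 5.17 in L1, by 4.00 in L18 and by 4.22 in L24 on the log2 scale. Ccrd_012931 rose by 1.72 in L1 and by 0.97 in L24, while its L18 value was -0.50 (adjusted p = 0.114). Ccrd_003434 rose by 1.52 in L1 and by 2.26 in L24, with 0.10 in L18 (adjusted p = 0.885). Of the 4 laccase genes, which oxidise lignin monomers in the wall, Ccrd_003100 rose by 2.01 in L1 and 2.65 in L24, with 0.53 in L18 (adjusted p = 0.203). The other 3 laccase genes fell in L1 and L24, and 2 of them fell in L18. Of 5 dirigent genes, whose proteins guide the coupling of monolignol radicals, 5 fell in L1, 2 fell in L18, and 3 fell and 1 rose in L24. Both other genes of the lignin term fell in every line. The study drew that term from genes lowered in all lines, so this result is not independent evidence.

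**Figure D5:**
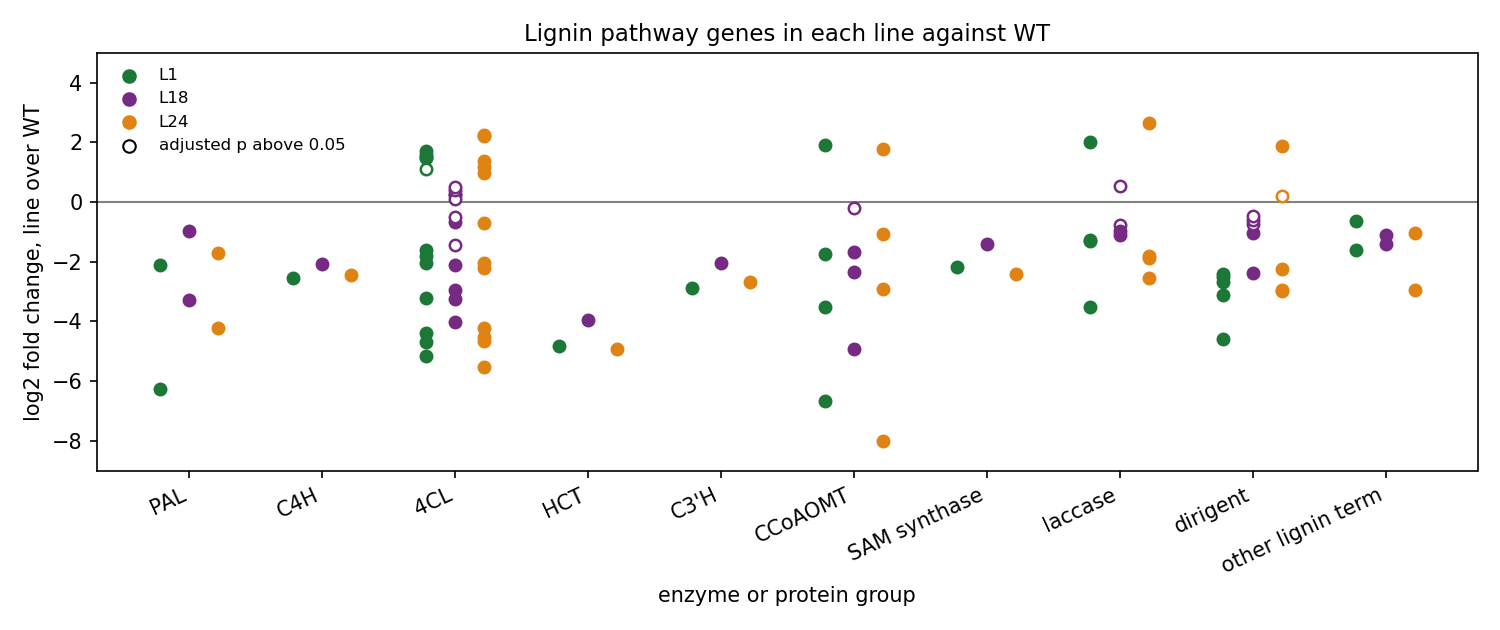
Log2 fold change over WT of 29 lignin pathway genes and the 4 CCoAOMT genes, by enzyme or protein group, for L1, L18 and L24; each point is a gene, and open points did not pass an adjusted p of 0.05. PAL, C4H, HCT, C3'H and S-adenosylmethionine (SAM) synthase are below 0 in every line, and 4CL and CCoAOMT hold genes on both sides of 0 in L1 and L24.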

How the data were processed

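The study sequenced RNA from L1, L18, L24 and WT callus, 3 samples each. Per the labels and the study's methods, the authors trimmed reads (minimum length and quality of 35), aligned them with STAR and deposited whole-number counts per gene and FPKM values. The versions and the treatment of multi-mapped reads and strand are not given in the sources used here. The deposited counts were tested with edgeR 4.0.16 in R 4.3.3 (TMM, glmQLFit and glmQLFTest, all 12 samples in 1 fit, Benjamini-Hochberg adjustment over all genes tested). Genes were kept by the Jaccard rule of HTSFilter, written anew, at a threshold of 10.5 normalised counts (20024 genes). The deposited FPKM values, counts scaled to exon length and library total, were used for levels, and normalised read counts are TMM-scaled. Totals of 12505275 to 19509803 counts set the precision.

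Members and lists were chosen with earlier results of these data known. Named genes were the 4 members, the 3 most alike genes of each, 2 neighbours on either side, and a list of lignin pathway genes. The correlation of deviations from the group means over 18 same-numbered pairs ran from -0.344 to 0.457, and 6 were over 0.1. All 3 pairs of L24 with WT were among these (0.457, 0.138 and 0.182). The others were L1 with L24 for replicate 2 (0.121), and WT with L18 (0.24) and L18 with L24 (0.29) for replicate 3. Samples of unlike number were not correlated, so these values cannot decide whether the numbers pair L24 and WT. Such a pairing was taken as possible, on the correlations alone. The main fit held no pairing, and the replicate block was fitted to all 12 samples, so it paired every group by number. No fit paired only L24 and WT. With the block over all groups, the 4 CCoAOMT calls in L24 against WT were kept. No replicates agreed within sampling noise. On simulated data for L24 against WT, 61 of 67 genes changed by 2 on the log2 scale and 42 of 66 changed by 1 were recovered, with 16 false calls. That simulation changed only these genes and 67 more, by 3, out of 20024, and alike in all lines. In the data 40% of genes were called for L24, so these rates need not hold here. Alternatives were other filters, size factors, DESeq2 1.42.0, edgeR's exact test, limma 3.58.1 on log2(FPKM + 1) and log2(FPKM + 0.1), fits with only the 2 groups compared, a replicate block, centring on neighbours and leaving out each sample. Of the 31 lignin pathway genes, 2 enter the counts over the list but are not reported here. Sequences were not used here.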

Additional observations from a re-analysis of the deposited data

Results flagged for a closer look

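The difference from WT was unequal between lines for 9 gene and line pairs, as called on the difference itself in edgeR's quasi-likelihood test (log2 scale). Ccrd_004659 was -1.74 in L1 over L18 and -3.10 in L24 over L18. Ccrd_019031 was -1.16 in L1 over L18, -0.56 in L24 over L18 and -0.60 in L1 over L24. Ccrd_012615 was 0.59 in L24 over L18 and -0.66 in L1 over L24. Ccrd_012618 was 2.11 in L1 over L18 and 1.96 in L24 over L18. L18 is the line from another Agrobacterium strain, and strain, line and transgene level cannot be told apart with 1 callus line each.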

How the results depend on the processing

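Against WT, the called changes of Ccrd_004659, Ccrd_019031 and Ccrd_012615 in L1, L18 and L24, and of Ccrd_012618 in L1 and L24, kept their direction and their call in all 23 alternatives. Ccrd_012618 in L18 was never called, with -0.45 to 0.10 over the fits that left out 1 sample. Between lines, Ccrd_012615 in L1 over L18 turned to 0.18 when centred on neighbours and ranged from -0.27 to 0.066 over the leave-outs. The leave-out ranges of L1 over L24 were -0.056 to 2.08 for Ccrd_004659 and -0.33 to 0.41 for Ccrd_012618. Of the 4 genes called for L24 over L18, 2 were called with only the 2 groups fitted and 2 with the replicate block, and 2 to 4 over the leave-outs. Of the 2 called for L1 over L24, 1 was called with only the 2 groups fitted, 1 when centred and 0 with the replicate block, and 0 to 2 over the leave-outs. The replicate block changed no other count of called CCoAOMT genes. The summed level of the 4 genes in WT was 1804 with TMM-scaled counts per kilobase, against 1701 FPKM. The cause of these shifts was not tested. Depth limits Ccrd_004659 in the lines most, since L24 holds only 7 counts in all.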
